A study of Mus musculus with 23 samples.

Results

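The enhancer landscapes of anterior cingulate cortex (ACC) and lateral entorhinal cortex (LEC) of the adult mouse were set against each other through 2 histone marks, H3K27ac and H3K4me2. The regions were chosen by overlap: an ACC-only region was an enhancer region of ACC that shared no base with any region of the LEC full list of the same mark, an LEC-only region was the reverse, and a common region shared at least 1 base with an enhancer region of the other subregion. The autosomal enhancer lists of ACC and LEC held 111595 regions over both marks. The enhancer lists of the 4 subregions of the series held 193126 regions over both marks, a count over all chromosomes and not autosomes alone. The groups were ACC and LEC tissue of C57BL6J mice at postnatal day 56, with retrosplenial cortex (RSC) and medial entorhinal cortex (MEC) of mice of the same strain and age read over each set. No genotype, treatment or transgene distinguished them, since all tissue came from this 1 strain and the labels name no allele or agent. Tissue was dissected by its architecture from unstained sections of 500 µm, and the labels give 2 libraries per mark for ACC, for LEC and for RSC, 2 for MEC H3K27ac and 1 for MEC H3K4me2.

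H3K27ac is acetylation of lysine 27 on histone H3, laid down at active enhancers and promoters. H3K4me2 is dimethylation of lysine 4, which marks enhancers and promoters and can be present at enhancers that are not active. Enhancers act on genes at a distance and differ between cell types more than promoters do. ACC is a midline frontal area linked to attention, pain and action monitoring. LEC is a division of the entorhinal cortex that passes information on objects and context to the hippocampus.

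A full list and an enhancer list existed for every mark in every subregion, and regions of the full list that the enhancer list lacks are called excluded regions here. On autosomes the ACC full lists held 46928 H3K27ac and 53038 H3K4me2 regions, against 41019 and 46963 in LEC. The enhancer lists held 27194 H3K27ac and 33418 H3K4me2 regions in ACC, against 22461 and 28522 in LEC. The lists carry no values per library, and the labels do not say whether libraries came from separate animals, so there was no spread to test against and no p-value is given. Sequencing depth is unknown, so a longer list and a deeper library cannot be told apart. A range in brackets after a percentage is its Wilson 95% interval, a measure of counting error alone. The tissue is a mixture of cells, so a mark in fewer cells and a weaker mark per cell cannot be told apart either. The lists hold no gene levels, so the tissue labels were not checked against marker genes, and regions are given by their mm9 coordinates without gene names.

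The first comparison asked how many enhancer regions were on one side only. ACC had more regions of its own than LEC in both marks. For H3K27ac, 11553 of 27194 ACC regions were ACC-only, or 42.5% (41.9 to 43.1). In LEC 5505 of 22461 H3K27ac regions were LEC-only, or 24.5% (24.0 to 25.1). For H3K4me2, 12752 of 33418 ACC regions were ACC-only, or 38.2% (37.6 to 38.7), against 6804 of 28522 LEC-only regions in LEC, or 23.9% (23.4 to 24.4). These shares follow from the rule and are a description.

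**Figure D1:**
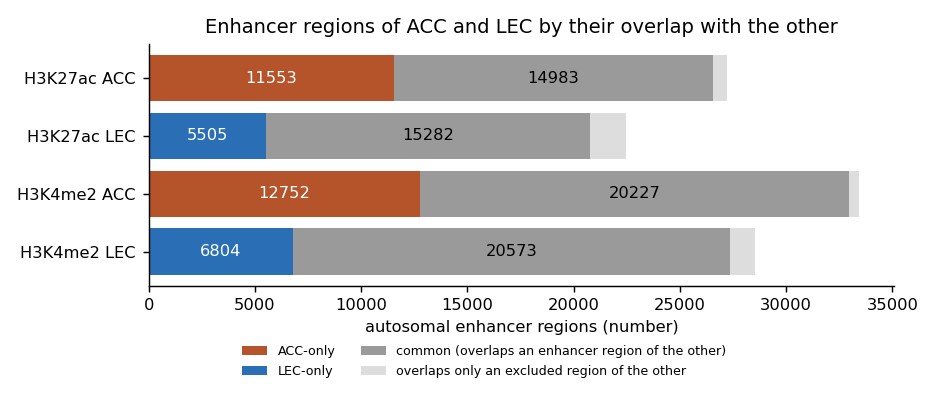
Number of autosomal enhancer regions per mark and subregion (horizontal axis), split into regions absent from the other full list, regions common with the other enhancer list, and regions that overlap only excluded regions of the other. ACC-only regions numbered 11553 for H3K27ac and 12752 for H3K4me2, and LEC-only regions 5505 and 6804.

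Common regions were the largest set in each of the 4 lists. They numbered 14983 in ACC and 15282 in LEC for H3K27ac, and 20227 in ACC and 20573 in LEC for H3K4me2. The numbers differ between the subregions because a wide region of one can overlap several of the other. In bases, common regions took 69.4% of the H3K27ac enhancer bases of ACC and 74.7% of those of LEC. ACC-only regions took 28.2% of the ACC bases, or 22.5 Mb, and LEC-only regions took 16.6% of the LEC bases, or 11.0 Mb.

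The remaining regions overlapped the other subregion only in its excluded regions, so they were listed as an enhancer on one side and not on the other without being absent from it. There were 658 such H3K27ac regions in ACC, or 2.42% (2.24 to 2.61), and 1674 in LEC, or 7.45% (7.12 to 7.80). For H3K4me2 there were 439 in ACC, or 1.31% (1.20 to 1.44), and 1145 in LEC, or 4.01% (3.79 to 4.25). The LEC share was above the ACC share in both marks. When the other enhancer list was used in place of the full list, these regions counted as one-sided, and the H3K27ac shares became 44.9% ACC-only and 32.0% LEC-only.

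The list lengths bear on these shares directly. With the ACC lists brought to the length of the LEC lists by keeping their widest regions, the H3K27ac shares were 35.8% ACC-only and 29.5% LEC-only, and the H3K4me2 shares were 32.4% and 28.9%. ACC stayed above LEC, by a smaller margin. This setting matched the number of regions and not the bases they covered. It dropped narrow ACC regions alone, so it changed width along with length and cannot separate them. Whether the remaining margin reflects list size was not tested.

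Few regions lay near the limit of the rule. Within 250 bp of a LEC full-list region without touching it lay 23 of the 11553 H3K27ac ACC-only regions, with a median width of 1075 bp. Another 9 H3K27ac regions of ACC overlapped the LEC list by 250 bp or less, with a median width of 2000 bp. On the LEC side the numbers were 19 just inside, with a median width of 1925 bp, and 5 just outside, with a median width of 1050 bp. For H3K4me2, 23 ACC-only and 16 LEC-only regions lay that close. Most one-sided regions were far from the other list: the median gap was 11.2 kb for H3K27ac ACC-only and 9.45 kb for LEC-only regions, and 10.1 and 8.57 kb for H3K4me2. More than 50 kb from any LEC region lay 1727 H3K27ac ACC-only regions, or 14.9%, and more than 50 kb from any ACC region lay 709 LEC-only ones, or 12.9%.

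One-sided regions were narrow. H3K27ac ACC-only regions had a median width of 1525 bp with quartiles of 1050 and 2350 bp, against 2650 bp with quartiles of 1700 and 4475 bp in common ACC regions. LEC-only regions had a median of 1675 bp (quartiles 1125 and 2425 bp), and common LEC regions 2450 bp (1625 and 3875 bp). For H3K4me2 the medians were 1275 bp ACC-only, 1850 bp common in ACC, 1250 bp LEC-only and 1650 bp common in LEC. A wide region has more chance of touching another, so width is tied to the rule and these values are a description.

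The share of one-sided regions fell with width on both sides. Under 1000 bp, 78.3% (76.8 to 79.8) of ACC H3K27ac regions were ACC-only and 51.4% (49.1 to 53.8) of LEC regions were LEC-only. From 1000 to 2000 bp the shares were 53.2% (52.2 to 54.1) in ACC and 31.9% (30.9 to 32.9) in LEC. At 10000 bp or more they were 4.11% (2.92 to 5.74) in ACC, or 32 of 779 regions, and 1.73% (0.911 to 3.25) in LEC, or 9 of 521. ACC was above LEC in every H3K27ac width class, with intervals that overlapped only at 10000 bp or more. H3K4me2 showed the same order up to 10000 bp, and above that both sides held 3 one-sided regions, of 219 in ACC and of 127 in LEC.

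**Figure D2:**
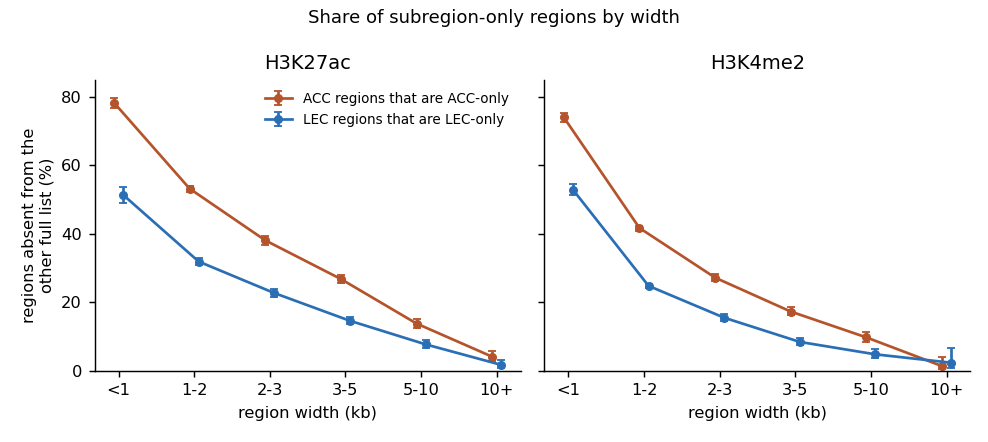
Percentage of enhancer regions absent from the other full list (vertical axis) by region width in kb (horizontal axis), with Wilson 95% intervals, for ACC and LEC in each mark. The H3K27ac share ran from 78.3% to 4.11% in ACC and from 51.4% to 1.73% in LEC.

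Common regions that paired 1 to 1 were close in median width, while their overlap in position is set by the rule. In 13690 cases an H3K27ac region of ACC overlapped exactly 1 region of LEC and the reverse. Their median width was 2550 bp in ACC and 2375 bp in LEC, and the median ratio of ACC to LEC width was 1.04. ACC was wider in 55.8% of these pairs and LEC in 42.4%. The ACC region had at least 2 times the LEC width in 9.74% of pairs, and the LEC region at least 2 times the ACC width in 5.30%. The 19375 such H3K4me2 pairs were alike, with medians of 1800 bp in ACC and 1650 bp in LEC and ACC wider in 59.8%.

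Excluded regions were one-sided less often than enhancer regions. Of the H3K27ac excluded regions, 22.1% (21.5 to 22.7) in ACC were absent from the LEC full list and 16.7% (16.2 to 17.3) in LEC were absent from the ACC full list, against 42.5% and 24.5% of the enhancer regions. For H3K4me2 it was 19.7% (19.1 to 20.2) in ACC and 15.6% (15.1 to 16.1) in LEC, against 38.2% and 23.9%. Excluded regions were wider, with H3K27ac medians of 3050 bp in ACC and 2925 bp in LEC, against 2075 and 2200 bp for enhancer regions, and the part of width in this difference was not tested.

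The next comparison asked where these regions lay. They were spread over all 19 autosomes. The ACC-only share of H3K27ac regions ran from 38.9% (36.5 to 41.5) on chromosome 7 to 46.6% (44.2 to 49.0) on chromosome 3. The LEC-only share ran from 20.3% (17.8 to 23.1) on chromosome 15 to 27.9% (25.6 to 30.4) on chromosome 3. The number of ACC-only regions per LEC-only region was lowest on chromosome 7, at 1.73, and highest on chromosome 15, at 2.69. For H3K4me2 this ratio was lowest on chromosome 9, at 1.64, and highest on chromosome 17, at 2.23. ACC-only regions outnumbered LEC-only regions on every autosome in both marks.

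By the median, one-sided regions lay somewhat farther from excluded regions than common ones. The median distance from the middle of a region to the nearest excluded region of its own subregion was 36.0 kb for H3K27ac ACC-only and 31.1 kb for common ACC regions. It was 42.0 kb for LEC-only and 33.8 kb for common LEC regions. More than 100 kb away lay 2885 of 11553 ACC-only regions and 27.5% of LEC-only regions, against 2973 of 14983 common regions in ACC and 20.8% in LEC. The H3K4me2 medians were 37.6 kb ACC-only and 32.8 kb common in ACC, and 40.1 kb LEC-only and 35.4 kb common in LEC.

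The share of one-sided regions among neighbours was higher around one-sided than around common regions, more so for H3K27ac than for H3K4me2. Around one-sided regions it was close to the share in the whole list except for LEC H3K27ac. Of the H3K27ac enhancer regions of ACC within 100 kb of an ACC-only region, 43.5% were ACC-only, against 37.1% of those around common regions and 42.5% of the whole list. Of the LEC regions around a LEC-only region 27.8% were LEC-only, against 19.9% around common ones and 24.5% of the whole list. For H3K4me2 the values were 37.9% against 34.8% in ACC, where the whole list had 38.2%, and 23.9% against 20.4% in LEC, where the whole list had 23.9%. Read along the chromosome, 47.5% of H3K27ac ACC-only regions and 24.9% of LEC-only regions stood in a run of 3 or more with no other enhancer region of that subregion between them. There were 356 runs of 5 or more in ACC and 61 in LEC, and these numbers rise with the share of one-sided regions in the list.

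The longest ACC run, chr12:89984251-90256925, held 15 ACC-only H3K27ac regions in 272.7 kb, where the LEC full list had 2 regions that fell between them. RSC had 7 enhancer regions and MEC 6 in this span. H3K4me2 was also richer in ACC there, with 13 enhancer regions against 7 in LEC. A run of 14 at chr9:27244276-27781275 faced 2 LEC regions, and RSC had 18 enhancer regions and MEC 7. H3K4me2 enhancer regions there numbered 10 in ACC and 2 in LEC. The other run of 14, chr13:16635251-18590100, spread over 1954.8 kb, with no LEC enhancer region and 11 in RSC. In it ACC had 14 H3K4me2 enhancer regions and LEC 8.

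LEC runs held fewer regions, and ACC had H3K27ac enhancer regions of its own inside each of the 3. The longest, chr1:61458826-62977600, held 12 LEC-only regions in 1518.8 kb, where ACC also had 12 H3K27ac enhancer regions, and H3K4me2 enhancer regions numbered 19 in ACC and 19 in LEC. The next, chr4:15362151-20772550, held 11 LEC-only regions over 5410.4 kb, with 8 enhancer regions in ACC. The third, chr4:65339401-68450425, held 9, with 5 enhancer regions in ACC, 14 in RSC and 15 in MEC.

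The third comparison asked whether H3K4me2, which was not used to choose the H3K27ac sets, fell on the same side. Where H3K4me2 was one-sided, it lay on the side of the H3K27ac region in most cases in both sets. Over the 11553 H3K27ac ACC-only regions, the full lists gave H3K4me2 in ACC and not LEC at 2852, or 24.7% (23.9 to 25.5), and in LEC and not ACC at 559, or 4.84% (4.46 to 5.25). The background over all 27194 ACC H3K27ac regions was 19.1% in ACC and not LEC, and 7.33% in LEC and not ACC. Over the 5505 LEC-only regions, H3K4me2 was in ACC and not LEC at 531, or 9.65% (8.89 to 10.5), and in LEC and not ACC at 926, or 16.8% (15.9 to 17.8). Over all LEC regions these were 14.4% and 10.6%.

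Counted among regions with H3K4me2 of exactly 1 subregion, the mark was that of ACC in 83.6% (82.3 to 84.8) of H3K27ac ACC-only regions, against 72.3% (71.3 to 73.3) over all ACC regions and 62.6% (61.1 to 64.2) of common ones. It was that of LEC in 63.6% (61.1 to 66.0) of LEC-only regions, against 42.3% (41.0 to 43.6) over all LEC regions and 36.5% (35.0 to 38.1) of common ones. Both one-sided sets stood above all regions and above the common regions of the same list, with intervals that did not overlap. The ACC and LEC shares start from different levels, so they are not set against each other. Among regions of 1000 to 2000 bp the shares were 82.2% (80.2 to 84.0) ACC-only against 57.7% (55.0 to 60.3) common in ACC, and 63.3% (59.7 to 66.8) LEC-only against 33.9% (31.5 to 36.3) common in LEC.

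H3K4me2 of both subregions lay over 24.6% (23.8 to 25.4) of ACC-only and 32.7% (31.5 to 34.0) of LEC-only regions. Both shares were below the 44.4% of all ACC and 52.4% of all LEC H3K27ac regions. H3K4me2 regions of ACC and of LEC over the same H3K27ac region need not overlap each other. No H3K4me2 of either lay over 45.9% (45.0 to 46.8) of ACC-only and 40.8% (39.5 to 42.1) of LEC-only regions, against 16.5% of common regions in ACC and 16.5% in LEC. The gap was also present among regions of 1000 to 2000 bp, where no H3K4me2 of either lay over 45.4% (44.1 to 46.7) of ACC-only and 41.4% (39.5 to 43.3) of LEC-only regions, against 23.1% (21.9 to 24.3) of common regions in ACC and 21.6% (20.5 to 22.8) in LEC.

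**Figure D3:**
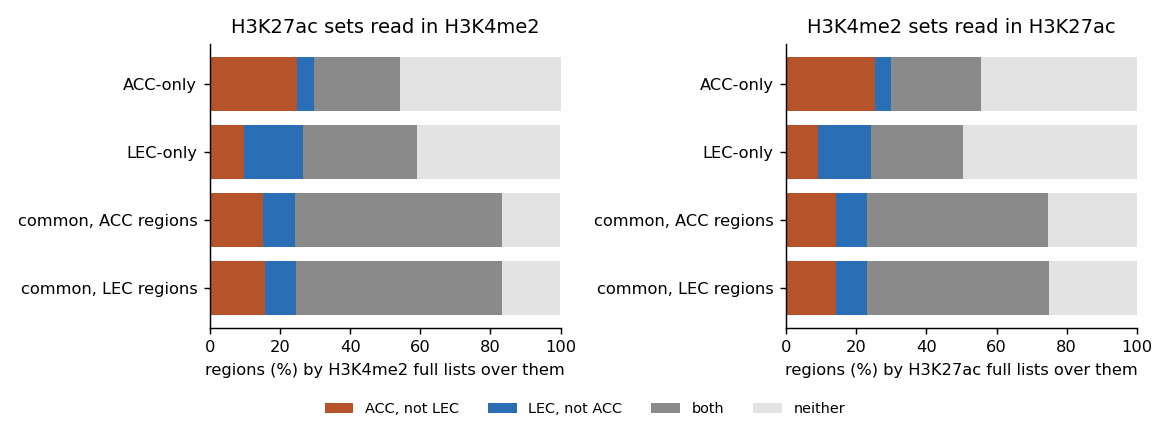
Percentage of regions of each set (horizontal axis) by the full lists of the other mark over them: ACC and not LEC, LEC and not ACC, both, or neither. In the H3K27ac sets, H3K4me2 of ACC and not LEC lay over 24.7% of ACC-only and 9.65% of LEC-only regions, and H3K4me2 of LEC and not ACC over 4.84% and 16.8%.

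The reverse reading gave the same sides. Over the 12752 H3K4me2 ACC-only regions, H3K27ac was in ACC and not LEC at 3241, or 25.4% (24.7 to 26.2), where the background over all ACC H3K4me2 regions was 18.4%, and in LEC and not ACC at 579, or 4.54% (4.19 to 4.92), against 7.32% over all. Over the 6804 LEC-only regions it was in ACC and not LEC at 612, or 8.99% (8.34 to 9.70), against 13.1% over all LEC regions, and in LEC and not ACC at 1027, or 15.1% (14.3 to 16.0), where that background was 10.1%. H3K27ac of neither subregion lay over 44.5% (43.7 to 45.4) of ACC-only and 49.7% (48.5 to 50.8) of LEC-only H3K4me2 regions, against 32.6% of all ACC and 30.4% of all LEC ones.

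Regions that were one-sided in both marks formed a small group. An H3K27ac ACC-only region overlapped an H3K4me2 ACC-only enhancer region in 2776 cases, or 24.0% against 20.4% of all ACC regions, and an H3K4me2 LEC-only one in 533, or 4.61% against 7.71%. An H3K27ac LEC-only region overlapped an H3K4me2 ACC-only one in 521 cases, or 9.46% against 15.0% of all LEC regions, and an H3K4me2 LEC-only one in 911, or 16.5% against 11.2%. The widest 5 on each side, with H3K4me2 of their own subregion and not the other in the full lists, were named by rule. Under a 50% limit on overlap only 1 of the 5 met this rule on each side, as H3K4me2 covered less of the other 4.

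The widest in ACC was chr8:98172901-98188375, with 15475 bp of H3K27ac and 2450 bp of H3K4me2 in ACC and neither mark in LEC. The nearest LEC H3K27ac region was 12.4 kb away. MEC H3K27ac covered 6700 bp of it and RSC H3K27ac none. At chr2:131488376-131502250, 13875 bp wide, ACC H3K4me2 covered 2450 bp, MEC H3K27ac covered 3100 bp, and RSC had neither mark. The region with the most H3K4me2 was chr1:55944001-55956850. Of its 12850 bp, ACC H3K4me2 covered 11125 bp, RSC H3K27ac covered all and RSC H3K4me2 12350 bp, and the nearest LEC H3K27ac region was 93.5 kb away. The regions chr10:98934001-98944825 and chr16:10058201-10068800 were 10825 and 10600 bp wide, RSC H3K27ac covered all of both, and MEC H3K27ac covered 3075 bp of the first and 4550 bp of the second.

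The widest in LEC was chr7:6810101-6824325, with 14225 bp of H3K27ac and 2650 bp of H3K4me2 in LEC and neither mark in ACC, RSC or MEC. The nearest ACC H3K27ac region was 2.50 kb away. The next 3 were chr6:99374451-99383275 (8825 bp), chr5:137415951-137424450 (8500 bp) and chr10:110579476-110586950 (7475 bp). H3K4me2 of LEC covered 3825, 1850 and 2425 bp of them in this order, and RSC and MEC had neither mark at any of the 3. At the last, chr2:29523151-29530625, RSC H3K27ac covered 6075 bp and MEC H3K27ac 3800 bp of 7475 bp. RSC H3K27ac lay over 3 of the 5 ACC regions and 1 of the 5 LEC regions, and MEC H3K27ac over 4 and 1. Of all H3K27ac enhancer regions of 5000 bp or more, RSC overlapped 88.7% in ACC and 87.1% in LEC, and MEC 56.1% and 60.8%, so that nothing is read from these few.

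RSC and MEC were not used to choose the sets, and were read over all of them. RSC lay over ACC-only regions more often than over LEC-only regions in both marks. The RSC full H3K27ac list overlapped 48.4% (47.5 to 49.3) of ACC-only and 29.7% (28.5 to 30.9) of LEC-only regions. It overlapped common regions equally, at 68.7% (68.0 to 69.5) in ACC and 68.6% (67.9 to 69.4) in LEC, and all enhancer regions about equally, at 60.1% in ACC and 59.4% in LEC. For H3K4me2 RSC overlapped 45.0% (44.2 to 45.9) of ACC-only and 35.2% (34.1 to 36.4) of LEC-only regions, where all enhancer regions gave 59.6% in ACC and 60.6% in LEC. LEC-only regions had been set against a longer list than ACC-only ones. With lists of equal length the RSC difference between the sets was 26.4 points for H3K27ac and 18.3 for H3K4me2, against 18.7 and 9.78 with the lists as deposited. That setting drops narrow ACC regions alone, so it changes width along with length and cannot separate them. RSC then overlapped 56.9% of H3K27ac ACC-only and 30.5% of LEC-only regions. Among regions of 1000 to 2000 bp the difference was 17.8 points for H3K27ac and 11.4 for H3K4me2.

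**Figure D4:**
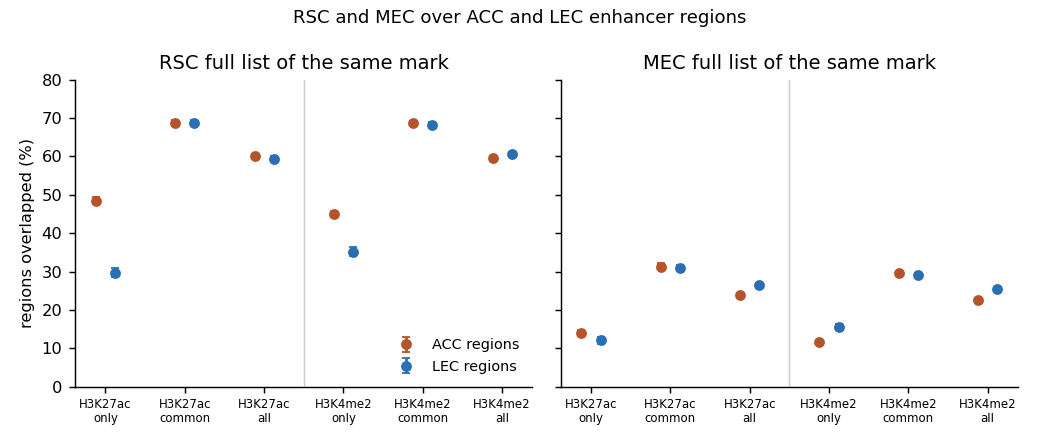
Percentage of regions overlapped by the RSC and the MEC full list of the same mark (vertical axis) for ACC and LEC regions of each set (horizontal axis), with Wilson 95% intervals. RSC overlapped 48.4% of H3K27ac ACC-only and 29.7% of LEC-only regions, and 68.7% and 68.6% of common regions in ACC and LEC. Common regions of ACC and LEC overlap each other by the rule, so their values are near each other by construction.

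For MEC, the other entorhinal division, the sign of the difference between the sets changed with the processing. Its full H3K27ac list overlapped 14.1% (13.4 to 14.7) of ACC-only and 12.1% (11.2 to 13.0) of LEC-only regions, where all enhancer regions gave 24.0% in ACC and 26.4% in LEC. The difference of 1.98 points became -1.21 points when enhancer lists were used in place of full lists, and 5.86 points with lists of equal length. In H3K4me2 MEC overlapped 11.6% (11.0 to 12.1) of ACC-only and 15.5% (14.7 to 16.4) of LEC-only regions, where all enhancer regions gave 22.7% in ACC and 25.5% in LEC. With lists of equal length this difference of -3.94 points became 0.502 points. These MEC levels depended on width and overlap: they were 3.61% and 5.77% with regions of at least 1000 bp, and 4.68% and 7.09% with 50% of a region covered. The labels give 1 library for MEC H3K4me2, and its enhancer regions had a median width of 750 bp.

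A larger share of LEC-only than of ACC-only regions was seen in neither RSC nor MEC. Neither RSC nor MEC had H3K27ac at 5692 ACC-only regions, or 49.3% (48.4 to 50.2), and at 3702 LEC-only regions, or 67.2% (66.0 to 68.5). Common regions lacked it in 28.2% of cases in ACC and 28.3% in LEC, values that are near each other by construction. H3K27ac of MEC without RSC lay over 2.33% (2.07 to 2.62) of ACC-only and 3.09% (2.66 to 3.58) of LEC-only regions, near the 2.80% of all ACC and 2.98% of all LEC regions.

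The sides parted further where H3K4me2 was one-sided too, and also where neither subregion had H3K4me2, and less where both had it. RSC H3K27ac overlapped 52.4% (50.5 to 54.2) of the 2852 ACC-only regions with H3K4me2 of ACC and not LEC, and 20.8% (18.3 to 23.6) of the 926 LEC-only regions with H3K4me2 of LEC and not ACC. Where both subregions had H3K4me2, the RSC values were 45.6% (43.7 to 47.4) of 2840 ACC-only and 40.0% (37.7 to 42.2) of 1802 LEC-only regions. Where neither had it, they were 48.5% (47.2 to 49.9) of 5302 and 22.6% (20.9 to 24.4) of 2246. Neither mark was in RSC or MEC at 788 of the ACC-only regions with one-sided H3K4me2, or 27.6% (26.0 to 29.3), and at 546 of the LEC-only ones, or 59.0% (55.8 to 62.1). The same was true of 33.4% of all ACC-only and 49.8% of all LEC-only regions. Over all H3K27ac enhancer regions it was 23.0% in ACC and 24.1% in LEC. The ACC value was thus below that of its whole one-sided set.

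The last comparison asked whether the marks moved together over whole neighbourhoods, in 9064 bins of 200 kb that held any enhancer region of ACC or LEC. ACC had more H3K27ac enhancer bases in 54.4% of bins and LEC in 32.0%, and for H3K4me2 it was 61.6% and 32.0%. Across bins, the ACC minus LEC difference in one mark followed that in the other weakly (Pearson r = 0.37, Spearman rho = 0.29). Bins share the 8 lists, their lengths and the dissections, so this is a description with no p.

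**Figure D5:**
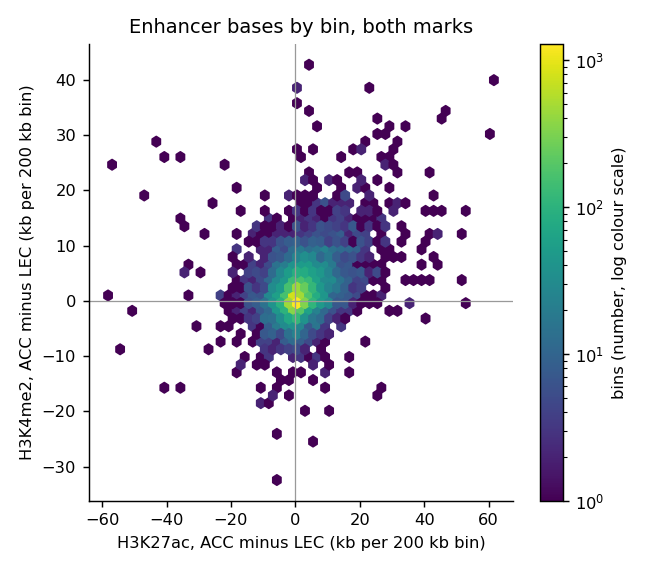
ACC minus LEC difference in enhancer bases per 200 kb bin, in kb, for H3K27ac (horizontal axis) and H3K4me2 (vertical axis), with colour giving the number of bins on a log scale. The differences correlated weakly over 9064 bins (Pearson r = 0.37).

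The bins with the largest differences in one mark were then read in the other. ACC and LEC start from different levels, so their counts are not set against each other. The bins also differed in size of excess. The smallest excess was 22.7 kb in the ACC and 13.3 kb in the LEC bins picked by H3K27ac. For bins picked by H3K4me2 it was 16.9 and 7.28 kb. In the 100 bins with the largest H3K27ac excess in ACC, H3K4me2 was also higher in ACC in 89. In the 100 bins with the largest excess in LEC, it was higher in ACC in 65 and in LEC in 35, near the 61.6% and 32.0% of all bins. When the bins were picked by H3K4me2, H3K27ac was higher in ACC in 88 of the 100 ACC bins, and higher in LEC in 63 of the 100 LEC bins. Over all bins H3K27ac was higher in ACC in 54.4% and in LEC in 32.0%.

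Excluded regions changed the order in many LEC bins. The full lists contain the enhancer regions that picked the bins, so keeping the order is partly built in. In the full lists, a reading chosen after the data were seen, 99 of the 100 H3K27ac ACC bins had more H3K27ac in ACC. Of the 100 LEC bins 56 had more in LEC. For bins picked by H3K4me2 it was 98 of 100 ACC bins and 58 of 100 LEC bins. Over all bins the full lists had more in ACC in 59.4% for H3K27ac and 62.1% for H3K4me2. In the LEC bins picked by H3K4me2, the full H3K27ac lists had more in ACC in 54 and more in LEC in 46. The ACC count was larger there, though below the 59.4% of all bins. In the LEC bins picked by H3K27ac, the full H3K4me2 lists had more in ACC in 75 and more in LEC in 25, where all bins gave 62.1% in ACC. Over all bins the correlation between the marks rose to r = 0.56 (rho = 0.43) in the full lists.

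The bins with the largest H3K27ac excess in ACC held it in the full lists as well. At chr14:31000001-31200000, ACC had 83.9 kb in 10 H3K27ac enhancer regions, against 22.2 kb in 9 in LEC, 23.5 kb in RSC and 0 in MEC. H3K4me2 covered 63.1 kb there in ACC and 32.5 kb in LEC. At chr1:94000001-94200000, ACC had 87.3 kb of H3K27ac and 66.0 kb of H3K4me2, against 25.9 and 26.7 kb in LEC. This bin ranked second for both marks, and RSC stood between the others with 41.9 and 39.3 kb. At chr3:143200001-143400000 the difference was in H3K27ac alone: ACC had 61.4 kb and LEC 8.55 kb, RSC had 63.5 kb, and H3K4me2 was 3.80 kb in ACC and 3.98 kb in LEC. At chr13:60600001-60800000, ACC had 81.0 kb and LEC 28.7 kb of H3K27ac, but the full lists brought these to 87.9 and 62.4 kb.

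The LEC bins divided. At chr13:53800001-54000000 LEC stood apart in H3K27ac: ACC had 10.2 kb in 6 regions, LEC 68.3 kb in 14, RSC 1.75 kb and MEC 0, and the full lists gave the same values. H3K4me2 was 15.1 kb in ACC and 13.4 kb in LEC there, so it was not higher in LEC. At chr9:113400001-113600000, ACC had 36.1 kb and LEC 87.5 kb, in enhancer and full lists alike, with 50.4 kb in RSC and 42.6 kb in MEC. At chr14:64800001-65000000 and chr2:156400001-156600000 the order turned round in the full lists. The first had 79.2 kb in ACC and 135.5 kb in LEC as enhancer regions, but 183.8 and 148.8 kb in the full lists. The second had 3.08 kb in ACC and 58.6 kb in LEC, but 132.0 and 94.2 kb in the full lists.

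Of the 4 H3K4me2 bins with the largest excess in ACC, the second was the chromosome 1 bin given above. At chr5:132800001-133000000, ACC had 57.5 kb of H3K4me2 in 15 enhancer regions and LEC 14.8 kb in 8, with H3K27ac at 4.17 kb in ACC and 0 in LEC. RSC had 13.7 kb of H3K4me2 there. At chr13:100200001-100400000, ACC had 57.0 kb and LEC 17.9 kb, but the full lists gave 79.8 and 85.2 kb. At chr1:170000001-170200000, ACC had 64.9 kb and LEC 26.3 kb of H3K4me2, with 75.5 and 28.7 kb in the full lists. H3K27ac enhancer regions there covered 32.9 kb in ACC and 33.4 kb in LEC, and the full H3K27ac lists 104.4 and 37.2 kb.

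Of the 4 H3K4me2 bins with the largest excess in LEC, only chr6:39800001-40000000 kept the order in the full lists. It had 27.2 kb in ACC and 51.2 kb in LEC in enhancer and full lists alike, with 42.6 kb of enhancer regions in RSC. H3K27ac there was 33.2 kb in ACC and 38.6 kb in LEC. At chr15:27600001-27800000, enhancer regions of H3K4me2 covered 6.40 kb in ACC and 38.8 kb in LEC, and the full lists 68.1 and 50.7 kb. At chr1:39800001-40000000 the enhancer values were 11.8 kb in ACC and 37.4 kb in LEC, and the full-list values 57.2 and 54.8 kb. At chr10:98400001-98600000 they were 12.6 and 32.5 kb, and 46.2 and 37.6 kb in the full lists.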

How the data were processed

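Per the labels' protocols, chromatin from dissected cortex was immunoprecipitated for H3K27ac or H3K4me2 and sequenced. Bowtie 1.1.1, bedtools 2.19.0 and the mm9 build are named, per the submitters' processing notes. The sources used here do not give how peaks were called, how libraries were merged or how enhancer regions were separated from the rest. The authors deposited region lists, named as reproducible enriched regions, with start and end on a 25 bp grid. The score in the deposited lists, which the MEC H3K27ac lists lack, was the region width in bp, so it held no enrichment. Of 17 files 16 were used, since 1 MEC list was a copy of another. Each list was taken as 1 value per subregion and mark.

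Overlaps were computed with Python 3.11.15 and numpy 2.4.6 on autosomes, and the numbers of one-sided regions were the same with bedtools 2.31.1. The steps were tested on simulated lists. Correlations used scipy 1.17.1 and figures matplotlib 3.10.9. Sets, widths and overlap follow the rule given with the results, at 1 bp. Overlap with the other mark and with RSC and MEC used full lists. Named regions were, per subregion, the 5 widest H3K27ac one-sided regions with H3K4me2 on the same side alone and the 3 longest runs, and per mark and direction the 4 bins of 200 kb with the largest difference in enhancer bases. The members, sets and lists were chosen with earlier results of these data known. Alternatives were 50% overlap, a 500 bp margin, enhancer lists, a 1000 bp minimum width, lists of equal length, sex chromosomes included and a width window of 1000 to 2000 bp. No gene was named, because no mm9 annotation was used here.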

Additional observations from a re-analysis of the deposited data

How the results depend on the processing

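No paired analysis was possible because the lists carry no values per library, and leaving out a replicate was not run for the same reason. Region depth is unknown, so list length limits every share. Of the values at the settings tried, 72 of the principal ones and 87 others stayed within their counting interval or within 1.5 times for counts, and 46 and 71 moved. The MEC differences reversed in 2 cases. The cause of these changes was not tested beyond what a setting does by construction.

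With 50% of a region covered in place of 1 bp, ACC-only and LEC-only shares were 48.3% and 28.3% for H3K27ac and 42.7% and 25.6% for H3K4me2. The ACC share of one-sided H3K4me2 over H3K27ac ACC-only regions was 85.6%, and the MEC H3K4me2 difference (ACC-only minus LEC-only) was -2.41 points. Of the 5 named widest regions per side, 1 met the rule.

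With enhancer lists in place of full lists, the shares were 44.9% and 32.0% for H3K27ac and 39.5% and 27.9% for H3K4me2. The own side took 81.8% over H3K27ac ACC-only, 61.0% over H3K27ac LEC-only and 79.4% over H3K4me2 ACC-only regions. The RSC difference was 15.4 points for H3K27ac and 8.06 for H3K4me2, and the MEC difference for H3K27ac reversed to -1.21 points.

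With regions of at least 1000 bp, the ACC-only shares were 40.2% for H3K27ac and 37.0% for H3K4me2, and the LEC-only share for H3K4me2 was 22.8%. The own side took 66.2% over H3K4me2 LEC-only regions. The H3K4me2 differences were 11.4 points for RSC and -2.16 for MEC. Median widths rose by construction, to 1775 bp ACC-only, 2800 bp common in ACC, 1837 bp LEC-only and 2575 bp common in LEC for H3K27ac, and to 1425, 1950, 1375 and 1750 bp for H3K4me2.

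With lists of equal length, the shares were 35.8% ACC-only and 29.5% LEC-only for H3K27ac, and 32.4% and 28.9% for H3K4me2. The own side took 80.8% over ACC-only and 71.0% over LEC-only H3K27ac regions, and 79.2% and 73.0% over H3K4me2 ones. RSC differences were 26.4 and 18.3 points. The MEC difference was 5.86 points for H3K27ac and reversed to 0.502 points (interval -0.537 to 1.54) for H3K4me2.

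Among regions of 1000 to 2000 bp, the own side took 82.2% over H3K27ac ACC-only regions and the RSC H3K4me2 difference was 11.4 points. Measured edge to edge, the median distance of common regions to excluded regions was 29.2 kb in ACC and 32.1 kb in LEC for H3K27ac, and 31.5 and 34.4 kb for H3K4me2. A 500 bp margin and the sex chromosomes moved none of the principal values beyond their intervals.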

Other observations

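Wide one-sided regions were overlapped by RSC less often than wide enhancer regions as a whole. Of the 426 H3K27ac ACC-only regions of at least 5000 bp, RSC overlapped 79.1% (337 regions) and MEC 40.1% (35.6 to 44.9), against 88.7% (87.6 to 89.7) and 56.1% (54.5 to 57.7) of all 3627 ACC enhancer regions of that width. Of the 191 LEC-only regions of that width, RSC overlapped 53.4% (102 regions, interval 46.3 to 60.3) and MEC 41.9% (35.1 to 49.0), against 87.1% (85.9 to 88.3) and 60.8% (59.0 to 62.6) of all 2878 LEC ones. Neither RSC nor MEC had H3K27ac at 17.8% (14.5 to 21.8) of these ACC-only and 39.8% (33.1 to 46.9) of these LEC-only regions, against 8.35% of all ACC and 9.62% of all LEC regions of that width. For H3K4me2, RSC overlapped 76.7% (69.2 to 82.8) of 146 ACC-only and 70.8% (56.8 to 81.8) of 48 LEC-only regions, and MEC 35.6% (28.3 to 43.7) and 66.7% (52.5 to 78.3). Over all H3K4me2 enhancer regions of that width RSC overlapped 89.0% in ACC and 91.9% in LEC, and MEC 50.9% and 62.7%, so the MEC share of the LEC-only regions was within counting error of all LEC ones.

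H3K4me2 one-sided regions were more often seen in MEC where both subregions had H3K27ac than where only their own or neither had it. With H3K27ac of both, MEC H3K4me2 overlapped 16.8% (15.6 to 18.1) of 3254 ACC-only and 25.6% (23.7 to 27.7) of 1786 LEC-only regions. Over all H3K4me2 enhancer regions MEC overlapped 22.7% in ACC and 25.5% in LEC. The ACC-only value was thus below its whole list, and the LEC-only value near it. Where H3K27ac was on the same side alone, MEC overlapped 9.44% (8.48 to 10.5) of 3241 ACC-only and 12.7% (10.8 to 14.8) of 1027 LEC-only regions. Where neither subregion had H3K27ac, MEC overlapped 8.91% (8.20 to 9.68) of 5678 and 9.83% (8.87 to 10.9) of 3379.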
